A study of Homo sapiens with 6 samples.

Results

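The 37 genes described here encode the proteins that copy the genome in S phase: the MCM helicase and the factors that load and start it, the polymerases and primase, the sliding clamp and its loader, the enzymes that finish lagging strands, the enzymes that supply deoxynucleotides, and proteins that pack new DNA into chromatin. They were taken from a list of DNA replication genes, and each was read at its brightest probe set by the mean over all arrays. All 37 were found among the 19775 genes with a named probe set. Expression was measured in L428, an established Hodgkin lymphoma cell line, 9 h after nucleofection with an LNA (locked nucleic acid) that inhibits the microRNA miR-9 (3 arrays) or with an LNA of scrambled sequence (3 arrays). Every sample was the same cell line, was nucleofected in the same way and was taken at the same time, so there was no untransfected group. Total RNA was hybridized to Affymetrix HG-U133 Plus 2.0 arrays, which read mRNA and not protein or DNA synthesis. The labels number the replicates without saying that they were separate cultures, so the p-values measure only the spread between these samples. The number of arrays limits the precision, and in bulk RNA a change in the share of cells in S phase and a change in RNA per cell cannot be told apart.

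Before a cell divides, the origin recognition complex, CDC6 and CDT1 load the MCM2 to MCM7 ring onto DNA in G1. Kinases, CDC45, the GINS complex and MCM10 then turn the ring into a working helicase, primase with polymerase alpha lays down primers, and polymerases delta and epsilon extend them on the PCNA clamp. Most of these genes are transcribed under E2F factors late in G1 and in S phase, and Hodgkin lymphoma lines in culture cycle continuously. MicroRNAs such as miR-9 lower the mRNAs they pair with through the seed near their 5′ end. The inhibitor was directed at miR-9, whose mature 5p strand is shown with the seed, bases 2 to 8, in capitals, from RefSeq on GRCh38.p14. The same 23 bases are encoded at chr1:156420392-156420414 (minus strand), chr5:88666902-88666924 (minus strand) and chr15:89368032-89368054 (plus strand).
hsa-miR-9-5p: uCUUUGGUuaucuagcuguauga

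The genes of the labelled line were bright. All 7 Hodgkin genes checked lay above the level filter, a mean log2 value of 7.11, by a wide margin, among them TNFRSF8 (CD30) at 10.35 to 10.73 over the 6 arrays and CCL17 at 12.55 to 12.83. Of 3 B cell genes that Hodgkin cells usually lose, MS4A1 (CD20) at 6.64 to 6.81 and CD79B lay below it and CD79A, at 7.28 to 7.43, above it. Of genes of other cells, 3 of 6 for T and NK cells, 1 of 3 for myeloid cells and 4 of 4 for fibroblasts and endothelium also passed that filter, the highest being COL1A1 at 7.99 to 8.23. Scrambled replicate 1 stood apart from the other arrays. Its 90th percentile was 9.28, against 9.53 to 9.57 with the miR-9 LNA and 9.45 and 9.47 on the other scrambled arrays, and the bacterial spike-in dap was at 10.05 there, against 7.97 to 8.55 elsewhere. The main counts are therefore also given without that array and after quantile normalization of the deposited values.

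DNA replication mRNAs lay slightly higher with the miR-9 LNA than with the scrambled LNA in the deposited values, and none passed the test. With all 6 arrays in use, the amount was about that seen in other bright genes. Of the 37 genes, 35 had a positive log2 difference, where 66.9% of all tested probe sets did. In the brightest of 5 equal-sized classes of mean level, 5204 of 5462 probe sets did. The largest were RFC5, a clamp loader subunit, at 0.31 ± 0.15, and MCM10, which helps to start the helicase, at 0.30 ± 0.09 (limma SE, n = 3 each). POLD1, the catalytic subunit of polymerase delta, and E2F1, the transcription factor, were the only members with a negative difference, at -0.09 ± 0.10 and -0.04 ± 0.07. Each log2 difference was taken as miR-9 LNA minus scrambled LNA, and the errors are limma standard errors throughout.

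All 37 members passed the level filter. At a limma adjusted p under 0.05, 0 of the 37 passed, as did 0.0% of the 27307 tested probe sets, and the members' adjusted p ran from 0.296 to 0.860. At an unadjusted limma p under 0.05 there were 10 members in the higher direction, where the background was 13.8%, and 0 in the lower direction, where it was 0.626%. Blocking on replicate number gave 20 members by limma in the higher direction against a background of 21.8%, 0 in the lower direction against 1.0%, and 0 past the adjusted threshold. The median difference of the members was 0.17, against 0.06 over all tested probe sets and 0.19 over the brightest of 5 equal-sized classes of mean level. Of the members, 25 lay in that brightest class, 11 in the class below it, whose median was 0.14, and 1 in the middle class. At an unadjusted limma p under 0.05, 1705 of the 5462 probe sets in the brightest class were higher. In the class below it 1358 of 5461 were higher at that p, and 4717 had a positive difference. With the replicate block the numbers higher at that p were 2485 of 5462 in the brightest class and 2171 of 5461 in the class below it.

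**Figure D1:**
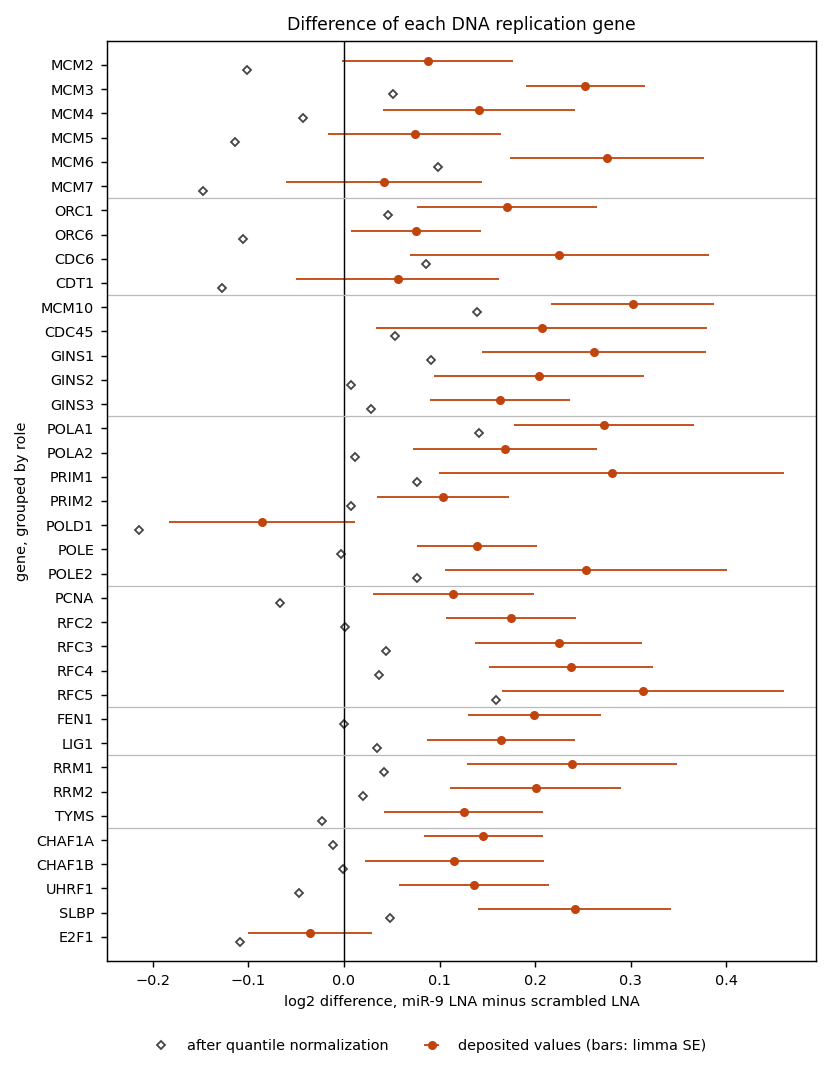
Log2 difference of each of the 37 DNA replication genes, miR-9 LNA minus scrambled LNA, from the deposited values (filled circles, bars limma SE, n = 3 arrays per group) and after quantile normalization (open diamonds), with lines between roles. In the deposited values 35 lie right of 0, with a median of 0.17, and after quantile normalization 23 do, with a median of 0.01.

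Quantile normalization, which gives every array the same distribution of values, removed most of the difference. The members' median was then 0.01, where all tested probe sets had 0.004 and the brightest class 0.01. A positive difference was left in 23 of 37 members, against 51.7% of tested probe sets. The 12 members that took the other sign were MCM2, MCM4, MCM5, MCM7, ORC6, CDT1, POLE, PCNA, TYMS, CHAF1A, CHAF1B and UHRF1. Quantile-normalized differences ran from -0.21 in POLD1 to 0.16 in RFC5, and limma again gave 0 members past the adjusted threshold (0.0% of tested probe sets). At an unadjusted p under 0.05 it gave 1 in the higher direction, MCM10, against a background of 2.42%, and 0 in the lower direction, against 2.16%.

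Without scrambled replicate 1 the deposited values gave 34 of 37 members a positive difference, against 63.2% of tested probe sets, with a median of 0.16, while the median of the brightest class was 0.12. Limma gave 11 members in the higher direction at an unadjusted p under 0.05 against a background of 10.0%, 0 in the lower direction against 3.13%, and 0 past the adjusted threshold. With that array left out and the rest quantile normalized, 28 of 37 members were positive with a median of 0.07, 1 member was in the higher direction at an unadjusted p under 0.05, and all tested probe sets had a median of 0.0089, with 54.1% positive and 2.99% higher at that p. The members had 0 lower at that p, where 4.97% of probe sets were. In that setting the median was 0.015 in the brightest class and 0.024 in the class below it. The setting that joins quantile normalization with leaving out that array was chosen after the data were seen.

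Under the other settings the number of members higher at an unadjusted limma p under 0.05 was 12 with array weights (background 15.9%). It was 16 with median centring (17.2%), 3 with a variance trend (10.6%) and 13 with the mean over a gene's probe sets (13.0%). With no level filter it was 15, against 8.88% of all 54613 probe sets, dim ones included, and 4735 of the 27307 above the filter. It was 2 without miR-9 LNA replicate 1 (8.43%), 3 without miR-9 LNA replicate 2 (9.13%) and 15 without miR-9 LNA replicate 3 (11.7%), and 6 without scrambled replicate 2 (12.8%) and 7 without scrambled replicate 3 (15.2%). With quantile normalization and the replicate block, 2 members were higher (background 6.54%), MCM10 and POLA1, and 2 lower (background 4.19%), MCM7 and POLD1. None of these settings put a member past the limma adjusted threshold, so the count at an unadjusted p rested on the setting.

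**Figure D2:**
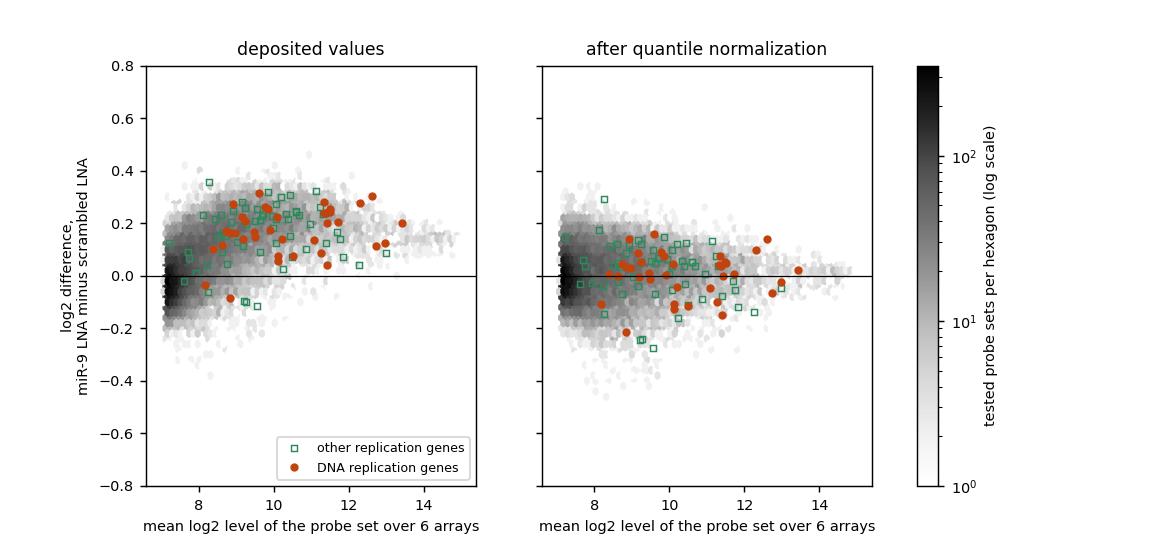
Log2 difference, miR-9 LNA minus scrambled LNA, against the mean log2 level of each tested probe set over the 6 arrays, in the deposited values (left) and after quantile normalization (right). Grey hexagons count all 27307 tested probe sets, filled circles are the 37 DNA replication genes and open squares 59 other replication genes. The members lie within the cloud of probe sets of like level in both panels, and the upward bend of the cloud on the left is absent on the right.

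Single arrays were placed unevenly. miR-9 LNA replicate 1 was the highest of the 6 arrays for 26 of the 37 genes, and scrambled replicate 1 or scrambled replicate 3 was the lowest for 15 and 13 of them. Taken as the median deviation from each gene's own mean, the members were at 0.18, 0.08 and -0.009 on miR-9 LNA replicates 1, 2 and 3, and at -0.13, -0.03 and -0.11 on the scrambled replicates 1, 2 and 3. After quantile normalization these medians were 0.05, 0.03 and -0.08 with the miR-9 LNA and 0.10, -0.01 and -0.10 with the scrambled LNA. The groups thus overlapped after quantile normalization, and scrambled replicate 1 was then the highest array.

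**Figure D3:**
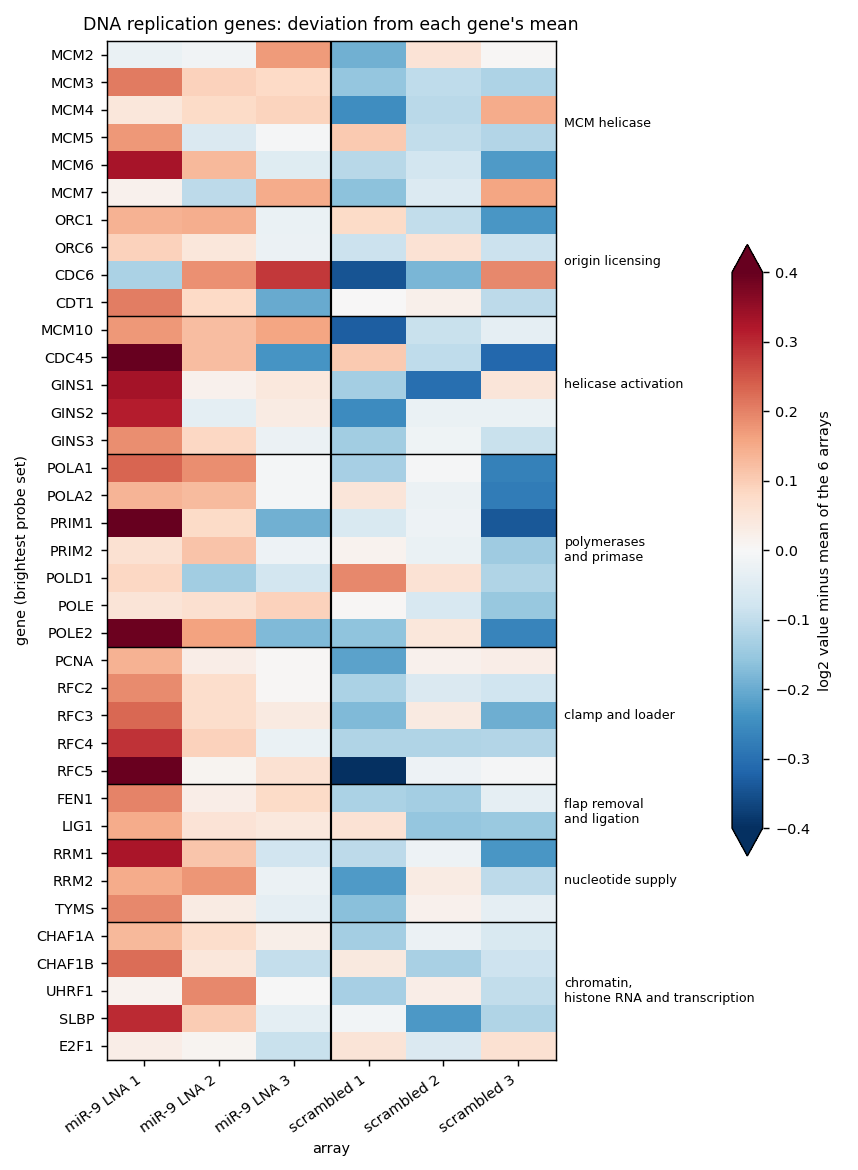
Deviation of each DNA replication gene from its own mean over the 6 arrays (log2, red higher and blue lower, colours end at 0.4 either way), with genes in rows by role, miR-9 LNA arrays left and scrambled arrays right. The column of miR-9 LNA replicate 1 is mostly red, being the highest array for 26 of the 37 genes, and CDC6 and MCM7 are among the rows that are highest on replicate 3 of a group.

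For 10 members no array of one group lay among those of the other, all with the miR-9 LNA arrays higher, where 18.1% of tested probe sets were so placed. They were MCM3, MCM6, MCM10, POLE, RFC2, RFC3, RFC4, RFC5, FEN1 and CHAF1A. No member lay lower without overlap, where the background was 3.97%. After quantile normalization 1 member lay higher without overlap, MCM10 (background 5.98%), and 1 lay lower, PCNA (background 5.73%). Within the same-numbered pairs of arrays, 25 members had the miR-9 LNA array above its partner in 3 of 3 pairs in the deposited values, against 40.2% of tested probe sets, and 5 were so after quantile normalization, against 21.4%. Without scrambled replicate 1, in the deposited values, 16 members lay higher without overlap (background 22.2%) and 0 lower (background 9.75%), and 25 were higher in 2 of 2 remaining pairs (background 48.2%).

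The MCM genes encode the ring of the replicative helicase. All 6 had positive differences in the deposited values, from 0.04 in MCM7 to 0.28 in MCM6, with a median of 0.11, and 2 stayed positive after quantile normalization, MCM3 and MCM6. MCM3 had the smallest p of all members. It was at 11.70, 11.58 and 11.57 on the miR-9 LNA arrays, against 11.34, 11.39 and 11.37 on the scrambled arrays, and the groups did not overlap. The difference was 0.25 ± 0.06 (limma adjusted p = 0.296) and was 0.05 after quantile normalization. MCM7 was at 11.43, 11.31 and 11.56 with the miR-9 LNA, against 11.25, 11.36 and 11.57 with the scrambled LNA. Replicate 3 was the highest array of either group, and the groups overlapped. Its difference was 0.04 ± 0.10, with a 95% interval of -0.20 to 0.28 (limma adjusted p = 0.860), and it was -0.15 after quantile normalization and -0.03 without scrambled replicate 1. MCM6 differed by 0.28 ± 0.10, MCM4 by 0.14 ± 0.10, MCM2 by 0.09 ± 0.09 and MCM5 by 0.07 ± 0.09. Without scrambled replicate 1 the difference of MCM4 was 0.05, of MCM2 0.01 and of MCM5 0.15.

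The 4 licensing genes load that ring. Their differences ran from 0.06 in CDT1 to 0.23 in CDC6. In the main setting none had an unadjusted limma p under 0.05, where the background in the higher direction was 13.8%. With the replicate block 2 of 4, CDC6 and ORC1, had one, where the background was 21.8%. Both lay in the class below the brightest, where 2171 of 5461 probe sets were higher at that p with the block. ORC1, the largest subunit of the origin recognition complex, was at 8.87, 8.88 and 8.71 with the miR-9 LNA, against 8.81, 8.64 and 8.50 with the scrambled LNA. Its groups overlapped, and the difference was 0.17 ± 0.09 (limma adjusted p = 0.426, and 0.194 with replicate number as a block). CDT1, which brings the MCM ring to origins, was at 10.33, 10.21 and 9.93 with the miR-9 LNA, against 10.13, 10.15 and 10.02 with the scrambled LNA. miR-9 LNA replicate 3 was the lowest of the 6 arrays for CDT1, whose difference was 0.06 ± 0.11 (limma adjusted p = 0.816) and was -0.13 after quantile normalization. CDC6, an ATPase of the loading step, differed by 0.23 ± 0.16 (0.11 without scrambled replicate 1), and ORC6, a further subunit of the origin complex, by 0.08 ± 0.07.

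The helicase activation genes had 5 of 5 differences positive in the deposited values and 5 of 5 after quantile normalization. MCM10 was at 12.79, 12.74 and 12.78 on the miR-9 LNA arrays, against 12.29, 12.53 and 12.58 on the scrambled arrays, with no overlap and the lowest value on scrambled replicate 1. The difference was 0.30 ± 0.09 (limma adjusted p = 0.296), 0.21 without scrambled replicate 1 and 0.14 after quantile normalization, where the unadjusted limma p was 0.0441 and the adjusted p 0.899. GINS3, a subunit of the GINS complex, was at 9.16, 9.06 and 8.96 with the miR-9 LNA, against 8.84, 8.96 and 8.89 with the scrambled LNA. Scrambled replicate 2 lay just above miR-9 LNA replicate 3, and the difference was 0.16 ± 0.07 (limma adjusted p = 0.361). GINS1 differed by 0.26 ± 0.12, CDC45 by 0.21 ± 0.17 and GINS2 by 0.20 ± 0.11. Without scrambled replicate 1 CDC45 differed by 0.31 and GINS2 by 0.13.

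Among the 7 polymerase and primase genes, 6 were positive and the median difference was 0.17. POLA1, the catalytic subunit of polymerase alpha, was at 9.14, 9.10 and 8.90 with the miR-9 LNA, against 8.78, 8.91 and 8.64 with the scrambled LNA. The lowest miR-9 LNA array lay level with the highest scrambled one, and each pair of same-numbered arrays was higher with the miR-9 LNA. The difference was 0.27 ± 0.09 (limma adjusted p = 0.303, and 0.159 with replicate number as a block) and was 0.14 after quantile normalization. POLD1 was at 8.93, 8.71 and 8.77 with the miR-9 LNA, against 9.04, 8.90 and 8.73 with the scrambled LNA, and the groups overlapped. Its difference of -0.09 ± 0.10 had a 95% interval of -0.31 to 0.14 (limma adjusted p = 0.685), and was -0.01 without scrambled replicate 1. PRIM1, the catalytic primase subunit, differed by 0.28 ± 0.18, and POLE2, an accessory subunit of polymerase epsilon, by 0.25 ± 0.15. POLA2 and PRIM2, accessory subunits of polymerase alpha and primase, differed by 0.17 ± 0.10 and 0.10 ± 0.07, and POLE, the catalytic subunit of polymerase epsilon, by 0.14 ± 0.06.

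In the clamp and its loader, all 5 differences were positive in the deposited values, and 4 of 5 members lay higher without overlap, where the background was 18.1%. None of the 5 lay higher without overlap after quantile normalization. RFC4, a loader subunit, was at 11.67, 11.48 and 11.36 with the miR-9 LNA, against 11.27 on each of the 3 scrambled arrays. All miR-9 LNA arrays were higher, and the difference was 0.24 ± 0.09 (limma adjusted p = 0.313) and 0.04 after quantile normalization. PCNA, the clamp, was at 12.88, 12.76 and 12.74 with the miR-9 LNA, against 12.52, 12.75 and 12.76 with the scrambled LNA. For PCNA miR-9 LNA replicate 1 was the highest array and scrambled replicate 1 the lowest, and the other arrays lay close together between them. The PCNA difference was 0.11 ± 0.08 (limma adjusted p = 0.533), 0.04 without scrambled replicate 1 and -0.07 after quantile normalization. RFC5 was at 10.00, 9.61 and 9.67 with the miR-9 LNA, against 9.16, 9.58 and 9.60 with the scrambled LNA, and its difference of 0.31 was 0.17 without scrambled replicate 1. RFC3 and RFC2, further loader subunits, differed by 0.22 ± 0.09 and 0.17 ± 0.07.

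FEN1 and LIG1 finish the lagging strand, FEN1 by cutting flaps and LIG1 by sealing nicks. FEN1 was at 11.63, 11.46 and 11.51 with the miR-9 LNA, against 11.30, 11.30 and 11.40 with the scrambled LNA. The groups did not overlap, and the difference was 0.20 ± 0.07 (limma adjusted p = 0.303) and was 0.0005 after quantile normalization. LIG1 was at 8.98, 8.89 and 8.87 with the miR-9 LNA, against 8.89, 8.68 and 8.68 with the scrambled LNA. Scrambled replicate 1 lay among the miR-9 LNA arrays, and the difference was 0.16 ± 0.08 (limma adjusted p = 0.375) and was 0.23 without that array.

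Of the genes that supply deoxynucleotides, RRM2, the regulated subunit of ribonucleotide reductase, was at 13.58, 13.61 and 13.41 with the miR-9 LNA, against 13.21, 13.47 and 13.33 with the scrambled LNA. The groups overlapped at a single pair of arrays, and the difference was 0.20 ± 0.09 (limma adjusted p = 0.359). TYMS, thymidylate synthase, was at 13.16, 13.00 and 12.93 with the miR-9 LNA, against 12.80, 12.99 and 12.93 with the scrambled LNA. Its groups overlapped, with miR-9 LNA replicate 1 the highest array and scrambled replicate 1 the lowest, and the difference was 0.13 ± 0.08 (limma adjusted p = 0.496), and 0.07 without scrambled replicate 1. RRM1, the catalytic subunit of ribonucleotide reductase, differed by 0.24 ± 0.11.

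The last group holds chromatin assembly, histone mRNA and transcription factors. SLBP, which binds the stem-loop of histone mRNAs, was at 11.81, 11.62 and 11.48 with the miR-9 LNA, against 11.50, 11.29 and 11.40 with the scrambled LNA. The groups overlapped at scrambled replicate 1, and the difference was 0.24 ± 0.10 (limma adjusted p = 0.341). E2F1, the activator of many of these genes, was at 8.19, 8.18 and 8.08 with the miR-9 LNA, against 8.22, 8.11 and 8.23 with the scrambled LNA. Its groups overlapped, with a 95% interval of -0.19 to 0.12 for the difference (limma adjusted p = 0.809), which was -0.02 without scrambled replicate 1. The level of E2F1 was about that of COL1A1, a gene of other cells, so background may limit this reading. CHAF1A and CHAF1B, subunits of the chromatin assembly factor that deposits histones behind the fork, differed by 0.15 ± 0.06 and 0.12 ± 0.09, and UHRF1, which recruits DNA methylation to new DNA, by 0.14 ± 0.08. After quantile normalization SLBP alone among these 5 was positive, at 0.05.

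**Figure D4:**
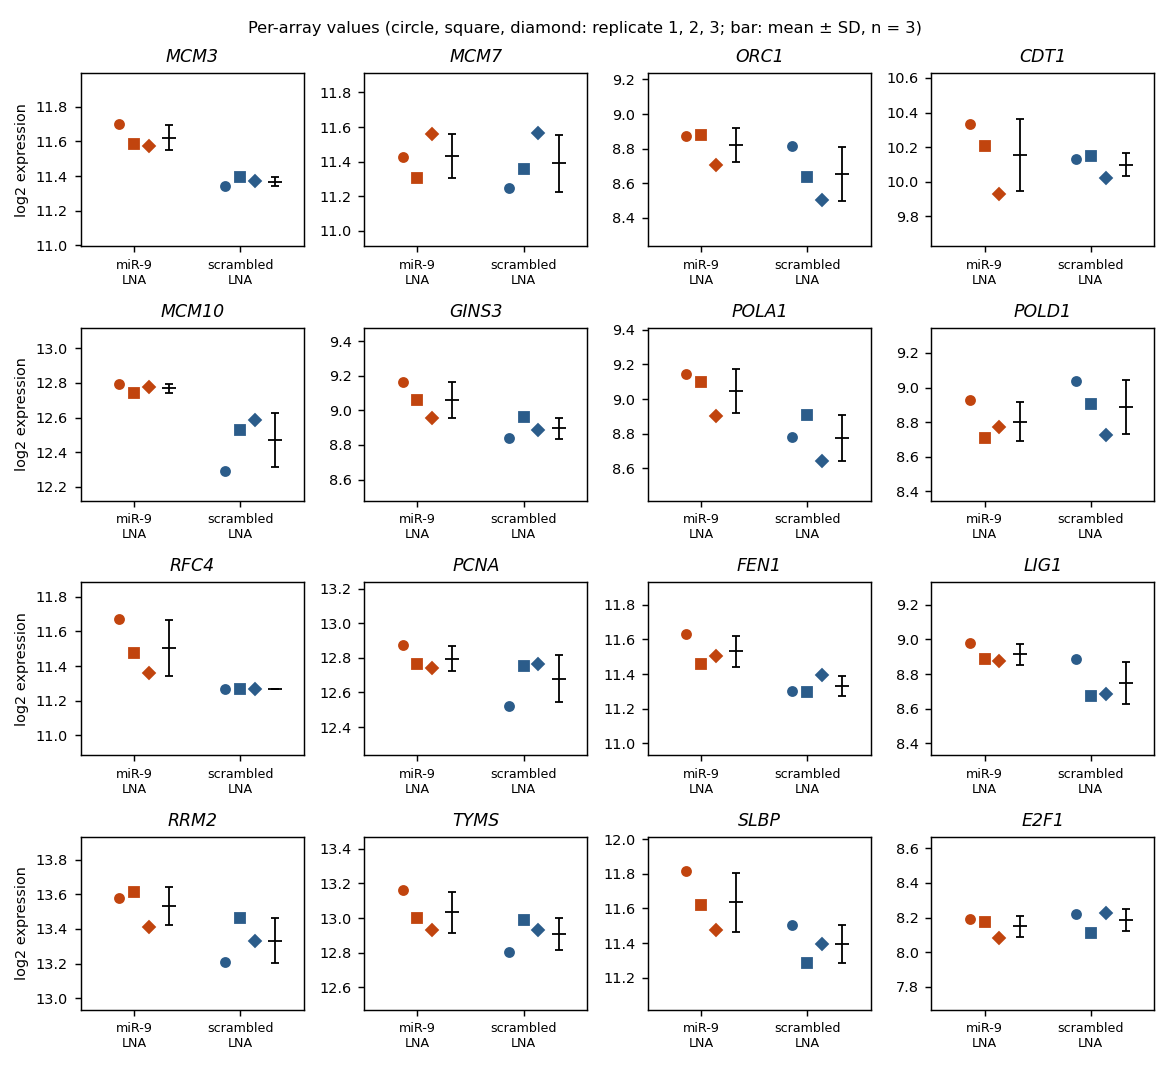
Log2 expression on each array of the 16 members with the smallest p or the lowest difference of their role, miR-9 LNA left and scrambled LNA right, with circle, square and diamond for replicates 1, 2 and 3 and bars for the mean ± SD (n = 3). Each panel spans the same height on the log2 scale. MCM3, MCM10, RFC4 and FEN1 have no overlap between groups, and the points of MCM7, CDT1, PCNA and E2F1 are mixed.

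Other probe sets of the same genes, on the same 6 arrays, gave a further reading that did not choose the members and is not independent of the first. Of the 37 genes, 19 had more than 1 probe set, with 30 further probe sets in all and 27 of them above the level filter. Of those 27, 20 had the sign of the gene's brightest probe set and 7 the opposite sign. A positive difference was found in 19, where 66.9% of all tested probe sets had one, and their median difference was 0.12. At an unadjusted limma p under 0.05 8 lay in the higher direction (background 13.8%), 0 in the lower one (background 0.626%), and 0 passed the adjusted threshold. In the brightest class 1705 of 5462 probe sets were higher at that p, and in the class below it 1358 of 5461. After quantile normalization 13 of the 27 were positive (background 51.7%), with 1 higher (2.42%) and 2 lower (2.16%) at that p. Without scrambled replicate 1 in the deposited values 19 were positive (background 63.2%), with 5 higher (10.0%) and 1 lower (3.13%). For MCM10 all 3 probe sets lay higher without overlap, with differences of 0.30, 0.23 ± 0.07 and 0.16 ± 0.06, which after quantile normalization were 0.14, 0.04 and -0.03. RFC3 at 204128_s_at, RFC5 at 203209_at, TYMS at 1554696_s_at, RFC2 at 1053_at and GINS2 at 243136_at, picked after their values were seen, also lay higher without overlap, by 0.26 ± 0.09, 0.26 ± 0.08, 0.24 ± 0.07, 0.16 ± 0.06 and 0.15 ± 0.06.

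The opposite sign was found at MCM4 (212142_at, 222037_at and 242479_s_at, from -0.14 to -0.05), CDT1 (209832_s_at, -0.05), POLA2 (244575_at at -0.05 and 236546_at at -0.003) and CHAF1A (203975_s_at). CHAF1A at 203975_s_at was the widest departure, at 8.39, 8.40 and 8.41 with the miR-9 LNA, against 8.32, 8.98 and 8.78 with the scrambled LNA. Scrambled replicate 1 was the lowest of its 6 arrays, and the difference was -0.29 ± 0.15 (limma adjusted p = 0.402), against 0.15 at its brightest probe set. A further CHAF1A probe set, 203976_s_at, differed by 0.0008. Which transcripts these probe sets read was not analysed here.

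The members also differed by replicate number. In both groups replicate 1 lay above replicate 3 for 17 members, 45.9% against 23.8% of all tested probe sets, and replicate 3 above replicate 1 for 4 members, 10.8% against 36.4%. The genes given here were chosen after their values were seen, as those of each direction with the widest gap shared by both groups, by the smaller of the gaps. CDC45 was at 9.67, 9.37 and 9.01 with the miR-9 LNA, against 9.35, 9.14 and 8.94 with the scrambled LNA, so that replicates 1 and 3 differed by 0.66 and 0.42. PRIM1 was at 11.89, 11.43 and 11.16 with the miR-9 LNA, against 11.29, 11.33 and 11.02 with the scrambled LNA, with gaps of 0.73 and 0.28. In CDC45 both gaps were wider than the difference between the groups, 0.21. MCM5 and ORC1 had smaller gaps of the same kind, 0.18 and 0.22 in MCM5 and 0.17 and 0.31 in ORC1 with the miR-9 LNA and the scrambled LNA.

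CDC6, MCM2, MCM7 and MCM4 were placed the other way. CDC6 was at 9.03, 9.34 and 9.44 with the miR-9 LNA, against 8.81, 8.97 and 9.35 with the scrambled LNA, with replicate 3 the highest of either group. Each same-numbered pair of CDC6 was higher with the miR-9 LNA, and its unadjusted limma p was 0.190 without and 0.0192 with replicate number as a block (adjusted p = 0.165). A measure of RNA quality differed with replicate number too. The 3′ minus 5′ difference of the ACTB control probe sets, which is larger where RNA or its copy is shortened, was 0.87, 0.40 and 0.22 on miR-9 LNA replicates 1, 2 and 3, against 0.58, 0.36 and 0.24 on scrambled replicates 1, 2 and 3. For the GAPDH control the same measure was 0.06, 0.006 and -0.003 on miR-9 LNA replicates 1, 2 and 3, against 0.186, -0.011 and -0.049 on scrambled replicates 1, 2 and 3. The highest array was thus miR-9 LNA replicate 1 by ACTB and scrambled replicate 1 by GAPDH. The part of either control measure in these gene differences was not tested.

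**Figure D5:**
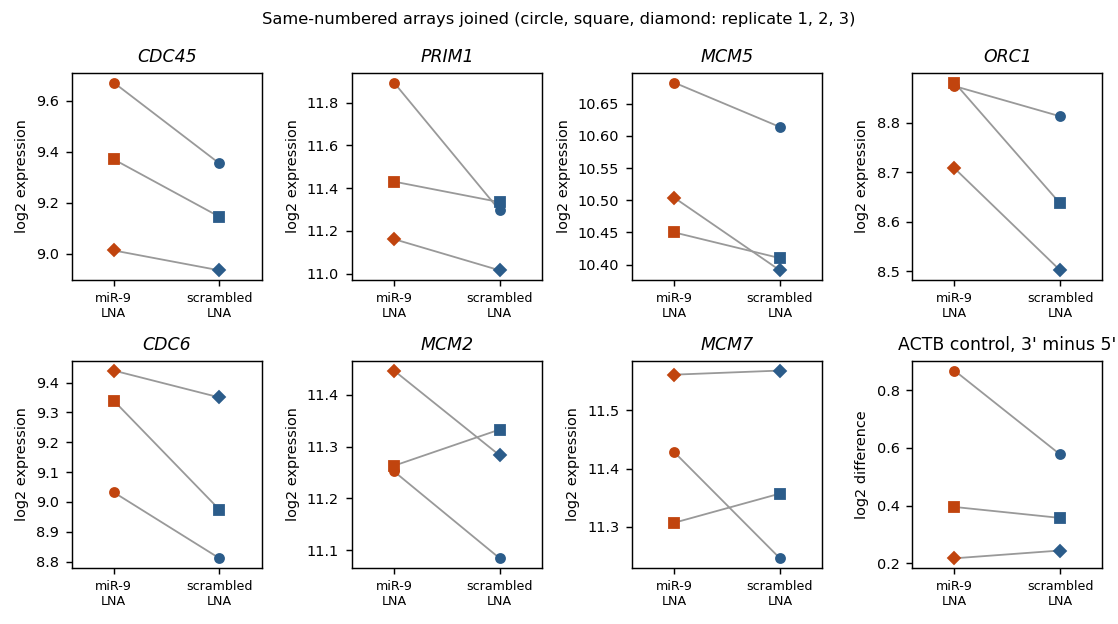
Log2 expression of 7 members with a gap between replicates 1 and 3 in the same direction in both groups, 4 with replicate 1 higher and 3 with replicate 3 higher, each the widest of their direction by the smaller gap, and the 3′ minus 5′ log2 difference of the ACTB control, with miR-9 LNA left, scrambled LNA right, circle, square and diamond for replicates 1, 2 and 3, and lines joining same-numbered arrays. CDC45, PRIM1, MCM5 and ORC1 have replicate 1 above replicate 3 on both sides, CDC6, MCM2 and MCM7 have the reverse, and the ACTB measure is highest on replicate 1 of either group.

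The rest of the replication machinery was read from 59 further genes, all above the level filter. Of these, 54 had a positive difference in the deposited values, where the background was 66.9%, and 5 a negative one, with a median of 0.18. Limma gave 0 past the adjusted threshold and 22 in the higher direction at an unadjusted p under 0.05, where the background was 13.8%. Of the 59 genes, 34 lay in the brightest class, where 5204 of 5462 probe sets were positive and 1705 higher at that p. A further 16 lay in the class below it, where 4717 of 5461 were positive and 1358 higher at that p. TOPBP1, which helps to load CDC45, had the smallest p, with a mean log2 level of 10.59 ± 0.05 in miR-9 LNA samples and 10.28 ± 0.10 in scrambled LNA samples (SD, n = 3 each), and differed by 0.31 ± 0.07 (limma adjusted p = 0.296). NASP, a histone chaperone, differed by 0.26 ± 0.06, and RFC1, the large clamp loader subunit, by 0.28 ± 0.08. In the lower direction, RECQL4, a helicase needed for origin firing, differed by -0.10 ± 0.06 and did not overlap between the groups, TK1, thymidine kinase, by -0.12 ± 0.08, and E2F4, an E2F factor that acts mainly as a repressor, by -0.10 ± 0.09 (limma adjusted p from 0.462 to 0.604). After quantile normalization the median of the 59 genes was 0.04, with 36 positive (background 51.7%) and 0 past the adjusted threshold. At an unadjusted limma p under 0.05, 0 were higher (background 2.42%) and 3 lower (background 2.16%). Those 3 were RECQL4, TK1 and E2F4, at -0.24, -0.27 and -0.24. Without scrambled replicate 1 in the deposited values, 48 were positive (background 63.2%), 14 were higher at an unadjusted p under 0.05 (background 10.0%) and the median was 0.13.

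As many of these genes are known E2F targets, their promoters were searched for the E2F letters TTTCCCGC, TTTCGCGC, TTTGCCGC and TTTGGCGC on both strands. RefSeq promoter windows on GRCh38.p14, 250 bases before to 50 after the first listed start of a gene, were matched for 35 members. An E2F match stood in 19 of the 35 windows, 54.3%, against 4.44% of the 15843 windows of protein-coding genes. The CCAAT box, bound by NF-Y, stood in 20 of 35, 57.1%, against 36.4%. The E-box CACGTG of MYC and related factors stood in 4, 11.4% against 8.88%, and the CHR element TTTGAA of mitotic genes in 1, 2.86% against 12.1%. The CCAAT and CHR letters were searched on both strands too, and no letters were shared between the E2F and CCAAT matches printed here.

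The members with an E2F match had a median log2 difference of 0.16, ranging from -0.04 to 0.28, and the 16 without one had 0.20, ranging from -0.09 to 0.31. The ranges lay over each other. For the CCAAT box the order was the reverse, with a median of 0.21 in members with a match and 0.16 in those without. Those ranges, -0.04 to 0.31 and -0.09 to 0.25, lay over each other too. The 250 bases before the start are shown for the 3 members of smallest p, MCM3, MCM10 and POLA1, and for the 2 members with a negative difference, POLD1 and E2F1, with E2F and CCAAT matches in capitals, 5′ to 3′ on the strand of the gene.
MCM3 promoter (chr6:52284743-52284992, minus strand): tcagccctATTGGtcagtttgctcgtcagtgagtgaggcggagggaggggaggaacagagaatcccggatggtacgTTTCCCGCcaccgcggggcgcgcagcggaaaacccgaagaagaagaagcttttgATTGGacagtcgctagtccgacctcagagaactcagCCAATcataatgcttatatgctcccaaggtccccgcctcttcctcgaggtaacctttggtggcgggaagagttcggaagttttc
MCM10 promoter (chr10:13161308-13161557, plus strand): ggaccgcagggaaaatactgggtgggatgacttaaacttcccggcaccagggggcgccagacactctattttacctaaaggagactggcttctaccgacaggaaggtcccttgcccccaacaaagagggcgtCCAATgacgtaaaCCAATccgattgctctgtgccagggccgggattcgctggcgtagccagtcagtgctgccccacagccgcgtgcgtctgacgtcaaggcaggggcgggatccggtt
POLA1 promoter (chrX:24693668-24693917, plus strand): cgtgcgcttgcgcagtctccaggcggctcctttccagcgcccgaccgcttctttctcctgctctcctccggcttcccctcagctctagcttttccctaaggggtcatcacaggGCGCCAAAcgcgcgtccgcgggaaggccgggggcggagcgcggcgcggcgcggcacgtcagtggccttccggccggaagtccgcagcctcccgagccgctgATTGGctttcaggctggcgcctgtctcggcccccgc
POLD1 promoter (chr19:50384073-50384322, plus strand): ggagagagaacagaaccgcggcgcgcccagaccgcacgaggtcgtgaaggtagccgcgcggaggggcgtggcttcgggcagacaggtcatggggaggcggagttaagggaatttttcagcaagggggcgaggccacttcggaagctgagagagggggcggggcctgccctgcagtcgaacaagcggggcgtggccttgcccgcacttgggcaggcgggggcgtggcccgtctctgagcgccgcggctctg
E2F1 promoter (chr20:33686386-33686635, minus strand): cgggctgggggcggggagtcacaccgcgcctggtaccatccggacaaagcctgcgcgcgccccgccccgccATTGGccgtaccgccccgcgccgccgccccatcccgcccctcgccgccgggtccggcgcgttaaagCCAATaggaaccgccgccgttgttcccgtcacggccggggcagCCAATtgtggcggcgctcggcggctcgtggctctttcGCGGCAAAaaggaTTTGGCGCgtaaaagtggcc

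MCM3 held 1 E2F match and 3 CCAAT matches in these bases, POLA1 1 and 1, and E2F1 2 and 3. MCM10 held 2 CCAAT matches and no E2F match, and POLD1 neither. The genes of smallest p and the genes of negative difference thus both included promoters with and without an E2F match. CCAAT matches stood in all 3 promoters of smallest p and in 1 of the 2 of negative difference. A match is a run of letters and not a measured binding site.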

How the data were processed

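The values are log2 expression that the authors deposited for 6 HG-U133 Plus 2.0 arrays; RMA and affy are named in the submitters' processing notes, and versions or options are not given in the sources used here. No array held a value under 5.97, and the spread of values differed between arrays, so whether every usual RMA step was applied is not known and deposited differences may hold differences between whole arrays. Of 54675 probe sets, 62 controls were removed, and limma 3.58.1 (lmFit, eBayes; R 4.3.3) tested the 27307 whose mean reached the median of the rest, 7.11. Tests were two-sided, with Benjamini-Hochberg adjustment over all tested probe sets and a threshold of 0.05. Gene names came from the platform annotation, with 41091 probe sets of 1 symbol, 1801 of several and 11721 of none, and 0 symbols needed updating against GRCh38.p14.

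The members, the further replication genes and the tests were chosen with earlier results of these data known. The 59 further genes were each read at a probe set of 1 symbol. Per-array values are given, in each role, for the member of smallest p and the member of lowest difference. Further genes named are the 3 of smallest p in each direction, and other probe sets are named where their sign is opposite. Remaining members are given by their difference, and other choices are said to be made after seeing values. Same-numbered arrays deviated together from their group means (r = 0.231, 0.193 and 0.634 across probe sets), against -0.429 to 0.168 for other pairs. Deviations from a mean of 3 arrays cancel out within a group, so these r values are not independent. The highest other pair, at 0.168, lay close to the same-numbered 0.193. The pairing comes from the data, the numbers from the labels. Alternatives were the filter, quantile normalization, centring, variance trend, array weights, the replicate block, the mean over a gene's probe sets and leaving out each array, and 2 that join quantile normalization with the block or with leaving out scrambled replicate 1 were added after the data were seen. The limma step was tested on simulated arrays. Their changes were larger than any member's difference and they held no array-wide shift, so that test does not show how well differences of the size seen here are found. Figures used Python 3.11.15 and matplotlib 3.10.9.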

Additional observations from a re-analysis of the deposited data

How the results depend on the processing

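The count of members past the limma adjusted threshold was 0 in all 15 alternatives, as was that of the 59 further genes. The count of members higher at an unadjusted limma p under 0.05 was 10 in the main setting (background 13.8%). It was 1 after quantile normalization (2.42%), 16 with median centring (17.2%), 3 with a variance trend (10.6%) and 20 with replicate number as a block (21.8%). Quantile normalization with the replicate block gave 2 (6.54%), and without scrambled replicate 1 it gave 1 (2.99%). Leaving out each array gave 2 to 15 (8.43% to 15.2%). The count was 2 without miR-9 LNA replicate 1 (8.43%), 3 without miR-9 LNA replicate 2 (9.13%) and 6 without scrambled replicate 2 (12.8%). Members lower at that p numbered 2 with quantile normalization and the replicate block (background 4.19%), MCM7 and POLD1, and 0 in the other settings. Members with a positive difference numbered 35 in the main setting and 23 after quantile normalization with or without the block, and their median, 0.17, was then 0.0113, and 0.069 without scrambled replicate 1 after quantile normalization.

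Of the 59 further genes, 22 were higher at an unadjusted limma p under 0.05 (background 13.8%). The count was 0 after quantile normalization (2.42%) and 11 with a variance trend (10.6%). It was 5 with quantile normalization and the replicate block (6.54%) and 1 with quantile normalization without scrambled replicate 1 (2.99%). Leaving out each array gave 8 to 22 (8.43% to 15.2%). Among these, it was 8 without miR-9 LNA replicate 1 (8.43%), 9 without miR-9 LNA replicate 2 (9.13%) and 14 without scrambled replicate 1 (10.0%). The median of the 59 genes, 0.18, was 0.0378 after quantile normalization with or without the block. It was 0.0487 with quantile normalization without scrambled replicate 1, and 0.12 as the mean over a gene's probe sets.

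For the 22 genes chosen by the rule for values (16 members and 6 further genes), 314 of 330 values kept their sign and 16 did not. Outside that tally, 8 more members took the other sign after quantile normalization, as listed with the results, and 12 of the 37 moved by over 1.5 times without scrambled replicate 1. After quantile normalization with or without the block, MCM7 was at -0.15, CDT1 at -0.13, PCNA at -0.0664 and TYMS at -0.0227. With quantile normalization without scrambled replicate 1, MCM7 was at -0.14, CDT1 at -0.0487 and PCNA at -0.0596. MCM7 was at -0.0094 and E2F1 at 0.0089 with array weights, leaving out each array put MCM7 between -0.0302 (without scrambled replicate 1) and 0.1307 (without scrambled replicate 3), with -0.0226 without miR-9 LNA replicate 3, and CDT1 was at -0.032 without miR-9 LNA replicate 1. The cause was not tested. The block brought 11 members under an unadjusted p of 0.05 and took 1, CHAF1A, above it, and put none past the adjusted threshold. Of all tested probe sets, 21.8% were higher at that limma p with the block and 13.8% in the main setting. Low signal over background limits dim probe sets. All members lay above the filter, but so did some genes of other cells. E2F1, at 8.079 to 8.227 over the 6 arrays, lay level with the fibroblast gene COL1A1, at 7.987 to 8.225.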
